A study of Homo sapiens with 18 samples.

Results

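The genes described are 46 genes of the centromere, the kinetochore and the spindle assembly checkpoint, taken from a list of names and grouped here by complex or role. Each of the 46 matched 1 of the 58884 gene identifiers counted in each library, and all 46 had more than 10 counts in total in every fit, so none was lost to the filter on low counts. They lay on 21 chromosomes. RNA was sequenced from T47D, an estrogen receptor-positive luminal breast cancer line, as a WT line and as 1 line labelled as a knockout of PARP1, a poly(ADP-ribose) polymerase (PARP1 KO). Each line was given the vehicle DMSO, niraparib at 10 μmol/L or olaparib at 10 μmol/L for 48 h, with 3 libraries for each of the 6 groups. Niraparib and olaparib are PARP inhibitors. The study's methods describe separate dishes for each condition, but neither they nor the labels tie a library to a dish of its own, so P values measure the spread between libraries, which may be technical. Total counts per library were between 28890837 and 52251288.

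The centromere is the stretch of a chromosome where the histone variant CENP-A replaces histone H3, and a network of CENP proteins, the constitutive centromere-associated network (CCAN), stays bound to it through the cell cycle. In mitosis the KNL1, MIS12 and NDC80 complexes assemble on this network and bind spindle microtubules. Kinetochores without microtubules recruit BUB1, BUB1B, MAD1L1, MAD2L1 and TTK, and the signal they send holds back the anaphase promoting complex. Many of these genes are transcribed mainly in late S, G2 and M phases in cycling cells.

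The genotype labels were checked on PARP1 itself. Its normalised read count, in CPM (counts scaled to library size, with TMM factors over the 18 libraries), was between 291 and 373 CPM in the 9 WT libraries and between 22.9 and 27.6 in the 9 PARP1 KO libraries. The WT libraries had 347, 373 and 368 CPM with DMSO, 313, 291 and 313 with niraparib and 337, 348 and 343 with olaparib. Those of PARP1 KO had 25.003, 24.2 and 24.99 CPM, 24.1, 22.9 and 26.3 and 24.9, 27.6 and 25.96 in the same order. The genotypes did not overlap, and the means with DMSO were 363 ± 13.9 CPM (SD, n = 3) and 24.7 ± 0.447, a log2 fold change of -3.87 (SE 0.058, adjusted P = 1.69e-34, edgeR). The 7 luminal markers ESR1, PGR, GATA3, FOXA1, KRT8, KRT18 and KRT19 had at least 112 CPM in every library. Markers of leukocytes (PTPRC, CD3E, CD14) stayed at or below 0.533 CPM. The basal genes KRT5 and KRT14 stayed at or below 0.1496 CPM, and TP63 was between 1.24 and 2.54. Among fibroblast genes, COL1A2, COL3A1 and DCN stayed at or below 0.852 CPM while COL1A1 was between 88.3 and 153, with a log2 fold change of 0.19 (SE 0.14, adjusted P = 0.373, edgeR) between niraparib and DMSO in WT.

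Some libraries stood apart from the others of their group in the chi-square per gene between the counts of a pair of replicates. WT DMSO replicate 1 gave 19.001 and 17.5, beside 3.28 between the other two. For WT niraparib replicate 2 the values were 12.2 and 16.8, beside 3.41, and for PARP1 KO niraparib replicate 3 they were 11.7 and 14.7, beside 3.13. PARP1 KO DMSO replicate 3 gave 10.5 and 5.74, beside 3.15. The olaparib libraries of PARP1 KO had 18.3 between replicates 1 and 3, with replicate 2 at 10.4 and 8.21 from them. Deviations of WT DMSO replicate 1 and WT niraparib replicate 2 from their group means correlated at 0.65 across 13526 genes, which are not independent replicates. An alternative chosen after seeing the data left out WT DMSO replicate 1, WT niraparib replicate 2 and PARP1 KO niraparib replicate 3. Then 14 members were called for niraparib in WT, 1 for olaparib and 7 between the inhibitors (edgeR). For the genotype difference for niraparib 14 were called, and 0 in the other comparisons described below. At an adjusted P value below 0.05 alone, 37, 25 and 33 members passed in those WT comparisons (edgeR). The shares of all 21338 genes tested were 42%, 27.8% and 39%. For the genotype difference for niraparib 29 members passed, against 21.8% of 23738 genes. Without PARP1 KO DMSO replicate 3 alone, 14 were called for the genotype difference for niraparib. None (0) was called for that for olaparib, for either inhibitor in PARP1 KO or between the lines. Shares of all genes called with these libraries left out are not given here.

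The first question was how the members responded to each inhibitor in WT cells. Positions given below for each member follow the Ensembl release 96 annotation of GRCh38. With niraparib, 24 of the 46 members fell and 12 rose at an adjusted P value below 0.05 (edgeR, Benjamini-Hochberg over all 22446 genes tested), against 18.1% of all genes lower and 19.9% higher. A gene was called when its change was also more than 1.5-fold: 13 members were called lower and 2 higher, against 5.72% and 8.1% of all genes. The 13 were BUB1, CENPF, CENPA, HJURP, CENPE, SGO2, OIP5, SPDL1, NDC80, NUF2, TTK, CENPI and MIS18A, and the 2 were CENPM and SKA1. The median log2 fold change of the members was -0.28, beside -0.025 for all genes tested. Under 16 alternative settings (other normalisation, filters, DESeq2, a replicate block, all 18 libraries in the fit, or libraries left out) 34 of the 36 members kept an adjusted P value below 0.05, while CENPW and MIS12 lost it on leaving out 1 library (up to 0.0703 and 0.0622, edgeR). Fewer cells in mitosis and less RNA per cell cannot be told apart in such bulk libraries.

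With olaparib in WT, set against the same 3 DMSO libraries, 13 members fell and 9 rose at an adjusted P value below 0.05 (edgeR), against 7.77% and 11.2% of all genes. CENPE was the 1 member called lower and 0 were called higher, against 1.98% and 2.06% of all genes. DESeq2 also called 1 member. In edgeR 28 members had an unadjusted P value below 0.05, beside 6783 of the 22446 genes tested. CENPQ reached 1.5-fold higher without WT DMSO replicate 2, at 0.62 on the log2 scale. The median of the members was -0.015, beside -0.017 for all genes. With 1 library left out, the median of the members was from -0.032 to 0.0067. Of the 22 members, 18 kept an adjusted P value below 0.05 under all 16 alternatives, and CENPN, CENPO, MIS12 and ZWINT did not (up to 0.116, 0.0752, 0.07997 and 0.1403, edgeR).

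The inhibitors were also compared directly, at the same dose and time. With niraparib, 25 members were lower and 7 higher than with olaparib in WT at an adjusted P value below 0.05 (edgeR), against 16.2% and 16.1% of all genes. BUB1, HJURP, CENPA, CENPF, TTK, SGO2, MIS18A and MAD2L1 were called lower and 0 members higher, against 3.33% and 5.62% of all genes. DESeq2 called 8 members. In edgeR 34 members had an unadjusted P value below 0.05, beside 8927 of the 22446 genes tested. The median of the members was -0.19, beside 0.020 for all genes. MAD2L1, at -0.60 on the log2 scale, dropped under 1.5-fold without WT olaparib replicate 1 (-0.57) or WT niraparib replicate 2 (-0.55). An adjusted P value below 0.05 was kept by 26 of the 32 members under all 16 alternatives and lost under at least 1 by CENPI, CENPK, CENPU, SPC25, NSL1 and SKA1 (up to 0.161 for CENPK, edgeR).

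In PARP1 KO cells the same doses were given. With niraparib, 0 of the 46 members passed an adjusted P value of 0.05 (edgeR) and 0 were called. The shares of the 22037 genes tested were 0.109% and 0.0136%. In edgeR 12 members had an unadjusted P value below 0.05, beside 2014 of the 22037 genes. DESeq2 passed 0 members. The median of the members was -0.085, beside 0.0050 for all genes, and their lowest adjusted P value was 0.307 (edgeR). With olaparib, 9 members fell and 1, HJURP, rose at an adjusted P value below 0.05 (edgeR), which is 10 members against 8.29% of all genes. Those that fell were CENPB, CENPE, CENPL, CENPX, NSL1, OIP5, SKA2, ZW10 and ZWINT. None of the 10 reached 1.5-fold (0 called in edgeR and in DESeq2), against 0.803% of all genes. In edgeR 17 members had an unadjusted P value below 0.05, beside 4640 of the 22037 genes. The median of the members was -0.060, beside 0.0058 for all genes. This median of the members was from -0.10 to -0.022 with 1 library left out. Only CENPX and ZWINT kept an adjusted P value below 0.05 under all 16 alternatives (edgeR). The other 8 lost it on leaving out 1 library, with the highest values between 0.0566 (HJURP) and 0.153 (CENPL).

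Each genotype was 1 line, so loss of PARP1 cannot be told apart from other differences between the lines. A direct test of the difference between genotypes was fitted on all 18 libraries and 24675 genes. This difference is the change in PARP1 KO minus the change in WT on the log2 scale. For niraparib, 20 members were higher and 11 lower in this difference at an adjusted P value below 0.05 (edgeR), against 10.4% and 12.5% of all genes. Of these, 11 members were past 1.5-fold in the higher direction and 3, CENPM, ZWINT and SKA1, in the lower, against 3.68% and 5.2% of all genes. The median of the members was 0.24, beside 0.033 for all genes. Of the 31 members, 25 kept an adjusted P value below 0.05 under all 24 alternatives, and CENPB, CENPH, CENPP, SPC25, KNTC1 and SKA3 did not (up to 0.107 for CENPB and 0.172 for SKA3, edgeR). CENPI, at 0.50, passed 1.5-fold without WT DMSO replicate 1, WT niraparib replicate 2 and PARP1 KO niraparib replicate 3 together (0.64), while SKA1 dropped under it there (-0.53) and without WT DMSO replicate 1 alone (-0.58). For olaparib, 6 members (CENPF, CENPE, BUB1 and KNL1 higher, ZWINT and CENPO lower) passed an adjusted P value of 0.05 (edgeR), against 2.27% of all genes, and 0 were called, against 0.657%. There, 25 members had an unadjusted P value below 0.05 (edgeR), beside 3877 of the 24675 genes, and DESeq2 passed 11 members and called 0. KNL1 and CENPO lost their pass on leaving out 1 library (up to 0.0681 and 0.0675, edgeR). Between the lines without inhibitor, ZW10 was higher and HJURP lower in PARP1 KO at an adjusted P value below 0.05 (edgeR), which is 2 members against 1.39% of all genes. In edgeR 14 members had an unadjusted P value below 0.05 between the lines, beside 3354 of the 24675 genes. No member was called there (0 in edgeR and in DESeq2), against 0.146% of all genes. Neither pass held under all 24 alternatives: it was lost under 10 for ZW10 and 6 for HJURP, and without WT DMSO replicate 1 the adjusted P values were 0.295 and 0.113 (edgeR).

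**Figure D1:**
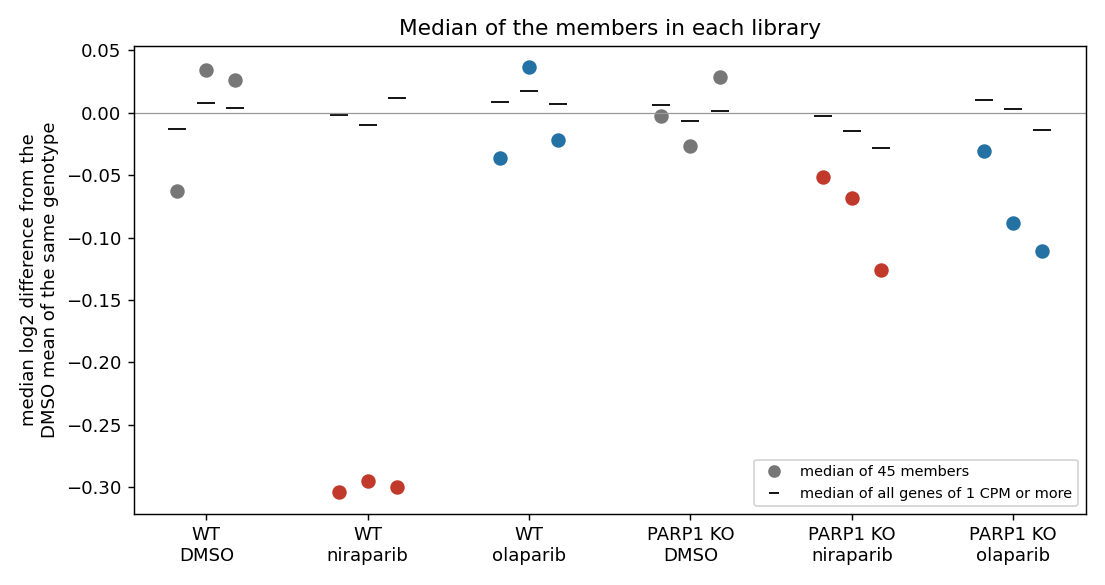
Median over 45 members (those with a mean of at least 1 CPM) of the log2 difference between each library and the mean of the DMSO libraries of the same genotype, with 3 points per group; black dashes are the same median over 13526 genes. The 3 WT niraparib libraries lie at -0.30, -0.295 and -0.300, below every other library, of which the lowest is at -0.13.

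Summed over the 46 members, the normalised read count was 3528 ± 74.5 CPM (SD, n = 3) in WT with DMSO, 3161 ± 62.98 with olaparib and 2572 ± 31.3 with niraparib. In PARP1 KO it was 3497 ± 42.5 with DMSO, 3387 ± 84.3 with olaparib and 3306 ± 109 with niraparib. The 3 WT groups did not overlap in this sum. In PARP1 KO both inhibitor groups lay below the DMSO libraries, the lowest of which had 3456 CPM beside highest values of 3455 with olaparib and 3427 with niraparib, and they overlapped each other. CENPF made up the largest part of the sum, and most of its fall with each inhibitor in WT, by the CENPF counts given below. The median log2 fold change of the members with olaparib in WT was -0.015, beside -0.017 for all genes.

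Promoter sequences are given for the 4 members that fell most with niraparib in WT and, of those with an entry, the 2 that rose most, to set the motifs beside the changes. They come from RefSeq (build GRCh38.p14) and run from 250 bases before to 50 bases after the annotated start, 5′ to 3′ on the gene's strand. Capitals mark matches, on either strand, to the cell cycle genes homology region (CHR, TTTGAA), the CCAAT box (CCAAT) and a pair of E2F motifs (TTTGGC, and TTTCCC followed by GC); none of these strings contains another. Positions are counted from the start, with 1 as the first transcribed base.
BUB1, chr2:110678014-110678313, minus strand: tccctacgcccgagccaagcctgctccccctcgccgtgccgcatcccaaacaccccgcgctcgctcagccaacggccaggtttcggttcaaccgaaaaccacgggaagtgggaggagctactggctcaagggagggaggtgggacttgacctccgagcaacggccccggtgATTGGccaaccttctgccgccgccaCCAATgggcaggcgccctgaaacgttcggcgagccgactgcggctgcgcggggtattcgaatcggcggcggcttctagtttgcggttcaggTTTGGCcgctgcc
CENPF, chr1:214602945-214603244, plus strand: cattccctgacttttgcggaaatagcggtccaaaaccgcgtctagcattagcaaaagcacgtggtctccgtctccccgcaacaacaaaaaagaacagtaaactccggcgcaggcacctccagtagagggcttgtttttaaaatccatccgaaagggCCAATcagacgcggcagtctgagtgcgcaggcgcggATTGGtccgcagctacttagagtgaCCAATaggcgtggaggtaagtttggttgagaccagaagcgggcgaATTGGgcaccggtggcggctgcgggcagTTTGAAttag
CENPA, chr2:26785806-26786105, plus strand: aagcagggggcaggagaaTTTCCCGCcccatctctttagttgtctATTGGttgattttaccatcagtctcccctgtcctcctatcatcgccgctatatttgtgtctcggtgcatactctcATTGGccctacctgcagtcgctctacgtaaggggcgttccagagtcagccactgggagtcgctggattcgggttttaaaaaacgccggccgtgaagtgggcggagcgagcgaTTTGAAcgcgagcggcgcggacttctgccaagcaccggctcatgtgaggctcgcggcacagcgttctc
HJURP, chr2:233854486-233854785, minus strand: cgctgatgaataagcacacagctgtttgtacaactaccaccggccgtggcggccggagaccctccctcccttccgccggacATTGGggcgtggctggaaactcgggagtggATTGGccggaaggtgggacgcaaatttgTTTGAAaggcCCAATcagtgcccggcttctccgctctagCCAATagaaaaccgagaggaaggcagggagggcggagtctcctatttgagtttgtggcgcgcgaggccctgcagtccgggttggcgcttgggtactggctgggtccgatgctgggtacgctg
SKA1, chr18:50374796-50375095, plus strand: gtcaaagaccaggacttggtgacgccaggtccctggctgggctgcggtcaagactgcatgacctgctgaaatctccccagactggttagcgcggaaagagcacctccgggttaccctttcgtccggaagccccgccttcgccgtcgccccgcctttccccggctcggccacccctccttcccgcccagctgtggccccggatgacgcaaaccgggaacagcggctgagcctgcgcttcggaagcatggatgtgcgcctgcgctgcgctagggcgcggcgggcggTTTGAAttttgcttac
ZWINT, chr10:56361224-56361523, minus strand: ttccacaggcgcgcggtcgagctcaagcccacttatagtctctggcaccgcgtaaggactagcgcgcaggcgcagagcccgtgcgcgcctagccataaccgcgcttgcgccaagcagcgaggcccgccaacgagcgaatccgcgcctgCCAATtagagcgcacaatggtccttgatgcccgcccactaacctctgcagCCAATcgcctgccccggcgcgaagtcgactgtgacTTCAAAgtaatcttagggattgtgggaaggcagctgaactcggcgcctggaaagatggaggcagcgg

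The CHR string lay at -18 in CENPA, -111 in HJURP, 41 in CENPF, 35 in SKA1 and -17 in ZWINT, and it was not in the BUB1 window, which held a pair of CCAAT boxes at -79 and -54 and TTTGGC at 38. Of the 46 members, 38 were in the promoter table; MIS18A, CENPH, CENPL, CENPM, KNL1, BUB3, TTK and KNTC1 were not among them. The CHR string was in 15 of the 38 windows (39.5%), beside 15.2% of all 35116 promoters of the table, and CCAAT in 24 (63.2%), beside 34.6%. TTTGGC was in 7 (18.4%, beside 12.8%), and the longer E2F string in 2, CENPA and MIS12 (5.26%, beside 1.63%). By their response to niraparib in WT, the CHR string was in 9 of 18 members that fell, 4 of 11 that rose and 2 of 9 that passed no test, and CCAAT was in 12, 5 and 7 of the same sets. Both directions held members with and without each string. A match describes the letters of the window, and no match says only that these letters are not in it.

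Genes that load CENP-A onto centromeres were all lower with niraparib in WT. CENPA (ENSG00000115163, chr2:26764289-26801067, plus strand) encodes the histone variant itself, and HJURP (ENSG00000123485, chr2:233833416-233854566, minus strand) the chaperone that deposits it. In WT the normalised read count of CENPA was 29.2, 32.5 and 29.8 CPM with DMSO, 12.6, 11.7 and 10.8 with niraparib and 24.3, 24.2 and 25.02 with olaparib. The niraparib libraries lay below all olaparib libraries, and those below all DMSO libraries. Libraries of PARP1 KO had 30.2, 30.03 and 29.3 CPM with DMSO, 27.9, 27.1 and 22.6 with niraparib and 34.4, 26.9 and 27.9 with olaparib. There the olaparib libraries overlapped those with DMSO, while the niraparib libraries all lay below them. The log2 fold change in WT was -1.39 (SE 0.075, adjusted P = 3.14e-12) with niraparib and -0.32 (SE 0.072, adjusted P = 0.00315) with olaparib (edgeR). In PARP1 KO it was -0.21 (SE 0.091, adjusted P = 0.5003) with niraparib (edgeR), and the difference between genotypes was 1.17 (SE 0.12, adjusted P = 1.22e-09). With 1 library left out, the niraparib value of CENPA in PARP1 KO was from -0.26 to -0.12, the latter without PARP1 KO niraparib replicate 3.

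The WT libraries had HJURP at 69.8, 67.7 and 68.998 CPM with DMSO, at 32.5, 30.1 and 27.7 with niraparib and at 73.5, 67.1 and 73.1 with olaparib. The niraparib libraries lay below all others of WT, and the olaparib libraries overlapped those with DMSO. In PARP1 KO the count was 56.6, 56.3 and 55.2 CPM with DMSO, 60.8, 50.9 and 51.3 with niraparib and 76.3, 66.05 and 64.4 with olaparib. Here the olaparib libraries all lay above those with DMSO, and the niraparib libraries overlapped them. HJURP fell with niraparib in WT by 1.19 on the log2 scale (SE 0.061, adjusted P = 1.46e-12, edgeR), and the genotypes differed by 1.15 (SE 0.096, adjusted P = 3.76e-11). It rose with olaparib in PARP1 KO, by 0.30 (SE 0.071, adjusted P = 0.0106) on the log2 scale (edgeR), and was lower in PARP1 KO than in WT with DMSO, at -0.30 (SE 0.067, adjusted P = 0.0173). Neither of these held an adjusted P value below 0.05 with each library left out in turn (up to 0.0566 and 0.113, edgeR). OIP5 and MIS18A, subunits of the Mis18 complex that prepares centromeres for loading, changed by -0.89 (SE 0.080, adjusted P = 1.03e-08) and -0.63 (SE 0.056, adjusted P = 8.90e-09) with niraparib in WT (edgeR). With olaparib OIP5 fell in both lines, by 0.42 in WT (SE 0.079, adjusted P = 5.95e-04) and by 0.29 in PARP1 KO (SE 0.074, adjusted P = 0.0191), while MIS18A was at 0.016 and -0.024 (adjusted P = 0.886 and 0.8903, edgeR). The pass of OIP5 in PARP1 KO was lost when any of 4 single libraries was left out (adjusted P at most 0.0944, edgeR). For OIP5 the genotypes differed by 0.86 (SE 0.11, adjusted P = 9.55e-08) with niraparib (edgeR).

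CENPB (ENSG00000125817, chr20:3783851-3786740, minus strand) binds a short box in the alphoid repeats of most human centromeres. CENPB stood at 115, 122 and 125 CPM in the WT libraries with DMSO, at 139, 135 and 142 in those with niraparib and at 109, 124 and 119 in those with olaparib. The niraparib libraries lay above all others of WT. The PARP1 KO libraries had 135, 130.2 and 127 CPM with DMSO, 126, 134 and 133 with niraparib and 107, 118 and 117 with olaparib. The olaparib libraries lay below those with DMSO there. The log2 fold change was 0.20 (SE 0.051, adjusted P = 0.00308) with niraparib in WT (edgeR) and -0.20 (SE 0.052, adjusted P = 0.0211) with olaparib in PARP1 KO, both within 1.5-fold; the latter did not pass when any of 3 single libraries was omitted (adjusted P at most 0.0895).

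Of the 14 CCAN genes, 4 fell, 4 rose and 6 did not pass an adjusted P value of 0.05 with niraparib in WT (edgeR). Of all genes tested, 18.1% fell and 19.9% rose there. CENPM (ENSG00000100162, chr22:41938737-41947152, minus strand), a subunit that binds CENP-I within the CENP-H, I, K and M group, had the largest change. For CENPM, WT libraries had 11.8, 14.97 and 14.5 CPM with DMSO, 21.5, 22.5 and 24.3 with niraparib and 16.8, 18.2 and 17.1 with olaparib. The WT groups did not overlap and ran from DMSO through olaparib to niraparib. The counts in PARP1 KO were 14.2, 15.3 and 13.96 CPM with DMSO, 11.6, 14.4 and 14.7 with niraparib and 13.7, 14.2 and 12.9 with olaparib. In that line the 3 groups overlapped. CENPM rose by 0.72 (SE 0.086, adjusted P = 5.64e-07) on the log2 scale with niraparib and by 0.33 (SE 0.087, adjusted P = 0.008800) with olaparib in WT (edgeR), and the genotypes differed by -0.81 (SE 0.13, adjusted P = 7.20e-06) for niraparib.

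Of its partners in that group, CENPI and CENPH fell with niraparib in WT, by 0.67 and 0.36 on the log2 scale (SE 0.086 and 0.063, adjusted P = 1.61e-06 and 7.66e-05, edgeR). CENPK was at -0.17 (SE 0.066, adjusted P = 0.0532) there (edgeR). In the CENP-O, P, Q and U group, which in human cells recruits PLK1 through CENP-U, CENPP, CENPO and CENPU rose, by 0.47, 0.40 and 0.27 (adjusted P = 0.00204, 1.84e-06 and 5.45e-04, edgeR). CENPQ was at 0.19 (SE 0.085, adjusted P = 0.0781) with niraparib and at 0.53 (SE 0.085, adjusted P = 1.05e-04) with olaparib in WT (edgeR). CENPC, which binds CENP-A nucleosomes and anchors the MIS12 complex, fell by 0.43 on the log2 scale with niraparib (SE 0.062, adjusted P = 7.57e-06, edgeR).

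Of the histone-fold subunits, CENPW fell by 0.22 on the log2 scale (SE 0.074, adjusted P = 0.0212, edgeR; 0.0703 without WT DMSO replicate 3) with niraparib in WT and CENPX was at -0.095 (SE 0.054, adjusted P = 0.181). CENPT, which binds the NDC80 complex, was at -0.21 (SE 0.23, adjusted P = 0.546) (edgeR), with libraries spread from 33.1 to 52.9 CPM with niraparib and from 40.3 to 58.4 with DMSO. Its standard error was the widest of the CCAN, and its highest WT libraries were WT DMSO replicate 1 and WT niraparib replicate 2, which stood apart. The log2 fold change of CENPT was -0.024 without the first, -0.47 without the second (not below 0.05 in adjusted P with either left out) and -0.28 without both (SE 0.061, adjusted P = 9.44e-05, edgeR). CENPL and CENPN, which form a pair on the CENP-A nucleosome, had log2 fold changes of -0.11 and 0.053 with edgeR's adjusted P values at 0.206 and 0.426.

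All 4 genes of the NDC80 complex, the rod that grips microtubules, fell with niraparib in WT. NDC80 (ENSG00000080986, chr18:2571557-2616635, plus strand) and NUF2 form its microtubule-binding end. Read counts of NDC80 in WT were 51.7, 58.7 and 57.03 CPM with DMSO, 30.9, 29.5 and 34.97 with niraparib and 43.3, 49.6 and 43.6 with olaparib. The 3 WT groups did not overlap, with niraparib lowest and olaparib between. With DMSO the PARP1 KO libraries stood at 50.9, 50.2 and 50.9 CPM, with niraparib at 50.5, 46.8 and 43.1 and with olaparib at 50.5, 49.2 and 44.9. In PARP1 KO both inhibitor groups overlapped DMSO. NDC80 fell by 0.82 on the log2 scale with niraparib in WT (SE 0.071, adjusted P = 8.68e-09, edgeR) and NUF2 by 0.79 (SE 0.050, adjusted P = 4.99e-11). Between niraparib and olaparib NDC80 was at -0.52 (SE 0.072, adjusted P = 6.77e-06) and passed 1.5-fold without WT niraparib replicate 3 (-0.59, edgeR); NUF2, at -0.57, passed it without WT olaparib replicate 1 (-0.59) or 3 (-0.60). SPC25 and SPC24, which join the complex to its anchors, were at -0.42 (SE 0.091, adjusted P = 8.86e-04) and -0.36 (SE 0.063, adjusted P = 7.83e-05) against DMSO (edgeR). The genotypes differed for NDC80 by 0.70 (SE 0.098, adjusted P = 7.92e-07) and for NUF2 by 0.68 (SE 0.077, adjusted P = 1.24e-08) with niraparib (edgeR).

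The MIS12 complex, which links the CCAN to KNL1 and NDC80, moved otherwise. MIS12 (ENSG00000167842, chr17:5486285-5490814, plus strand) is 1 of its 4 subunits. In WT the normalised read count of MIS12 was 38.3, 37.4 and 39.1 CPM with DMSO, 42.01, 43.2 and 43.7 with niraparib and 41.8, 44.01 and 44.1 with olaparib. Both inhibitor groups lay above DMSO and overlapped each other. Libraries of PARP1 KO had 38.4, 37.8 and 35.98 CPM with DMSO, 34.1, 31.6 and 35.1 with niraparib and 39.03, 37.7 and 39.99 with olaparib. There the niraparib libraries lay below DMSO. With niraparib in WT, MIS12 was at 0.17 (SE 0.053, adjusted P = 0.0159) on the log2 scale, DSN1 at 0.26 (SE 0.053, adjusted P = 3.42e-04) and NSL1 at 0.23 (SE 0.059, adjusted P = 0.00391) (edgeR), 3 rises under 1.5-fold. That of MIS12 had an adjusted P value of 0.0622 without WT DMSO replicate 2 (edgeR). PMF1 was at 0.10 (SE 0.067, adjusted P = 0.256) (edgeR); 23.3% of its exon bases are shared with PMF1-BGLAP, where reads were not counted for either gene.

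The 2 genes of the KNL1 complex parted. KNL1 is the scaffold that TTK phosphorylates and that the BUB proteins bind, and ZWINT (ENSG00000122952, chr10:56357227-56361273, minus strand) is its partner. The WT libraries had ZWINT at 144, 169 and 167 CPM with DMSO, at 237, 232 and 237 with niraparib and at 178, 183 and 178 with olaparib. The WT groups did not overlap, with niraparib highest. In PARP1 KO the count was 180.5, 178 and 184 CPM with DMSO, 168, 170.2 and 169 with niraparib and 142, 146 and 150.02 with olaparib. In PARP1 KO they did not overlap either, and ran the other way, with DMSO highest and olaparib lowest. ZWINT rose by 0.56 (SE 0.054, adjusted P = 2.49e-08) on the log2 scale with niraparib in WT (edgeR), just under 1.5-fold and past it without WT DMSO replicate 2 (0.60). It fell with olaparib in PARP1 KO, by 0.31 (SE 0.046, adjusted P = 3.04e-04, edgeR), and the genotypes differed by -0.65 (SE 0.070, adjusted P = 3.94e-09) for niraparib and -0.48 (SE 0.070, adjusted P = 6.82e-05) for olaparib. KNL1 fell in WT by 0.44 with niraparib (SE 0.047, adjusted P = 1.24e-07, edgeR) and by 0.25 with olaparib (SE 0.047, adjusted P = 6.03e-04).

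**Figure D2:**
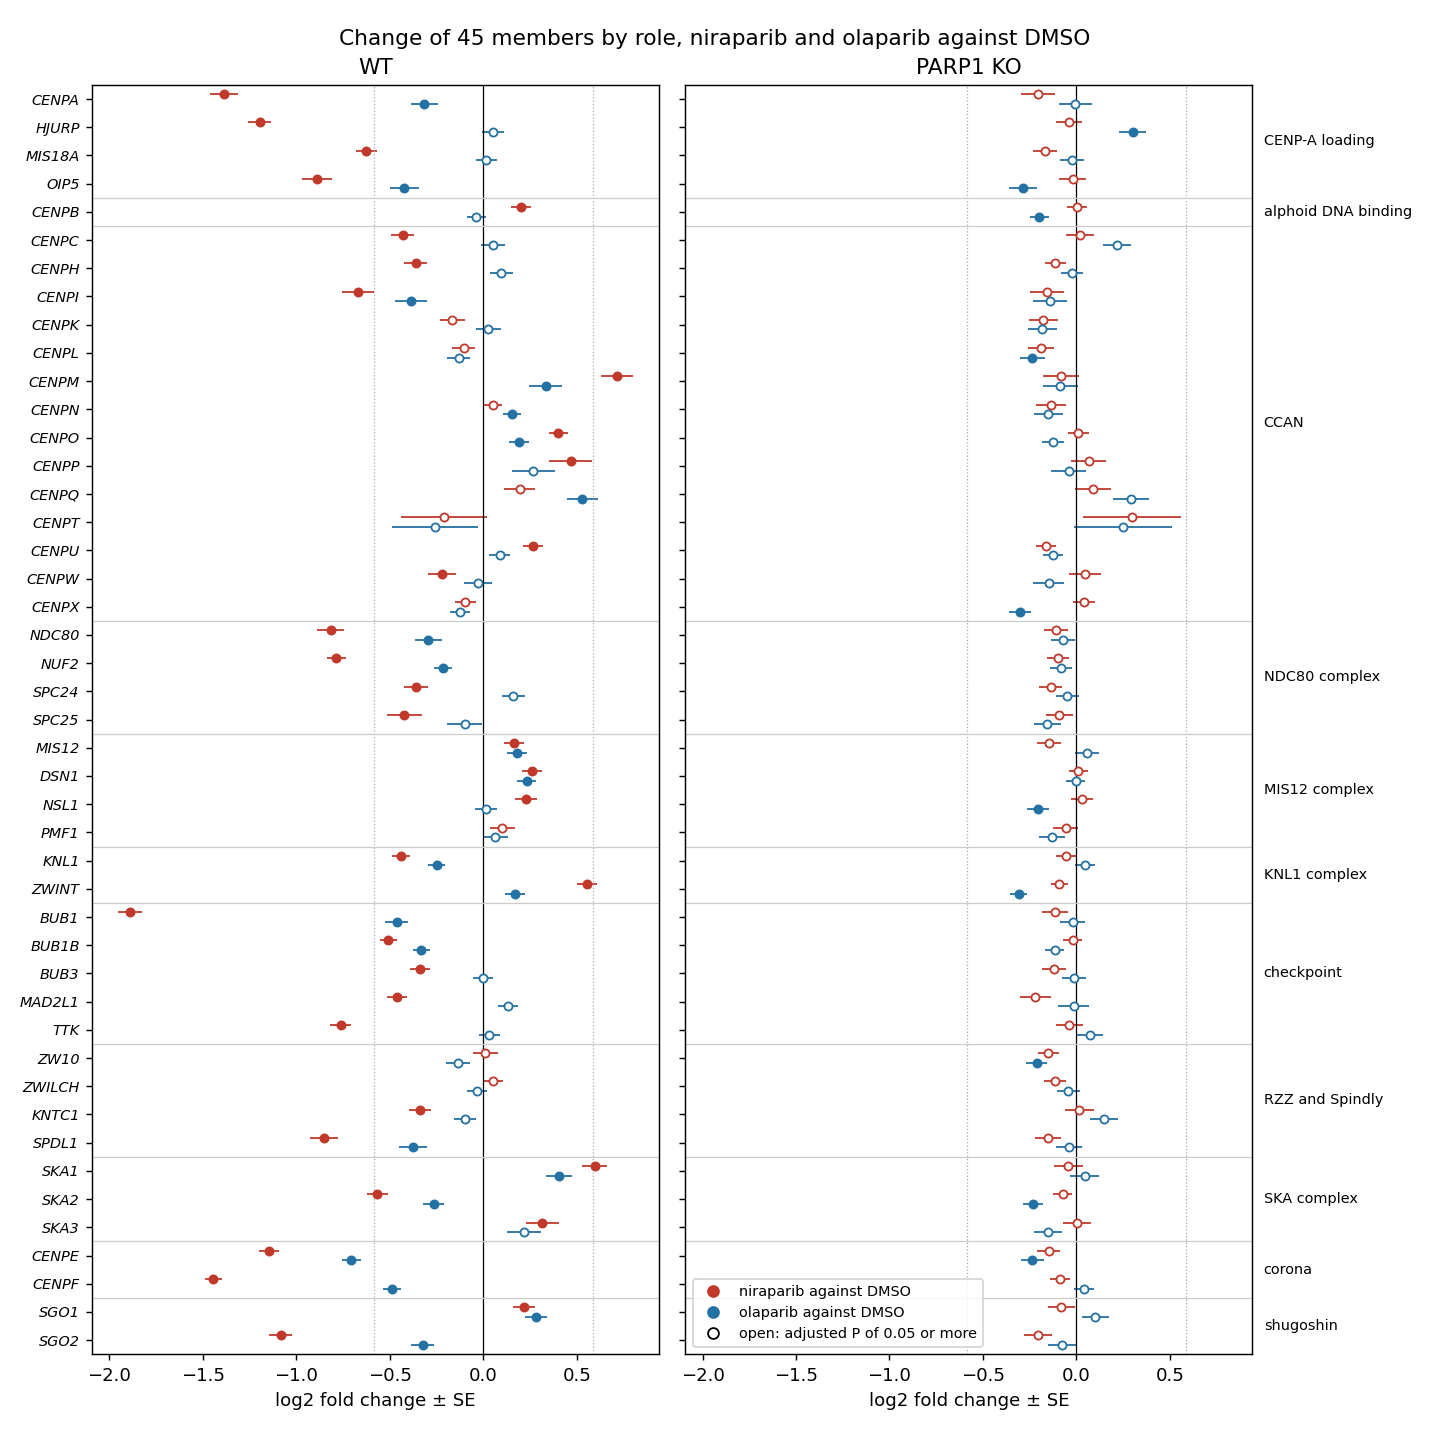
Log2 fold change ± SE of 45 members by role (MAD1L1, with too few counts, is left out), niraparib in red and olaparib in blue, each against the DMSO libraries of the same genotype; filled points had an adjusted P value below 0.05 (edgeR) and dotted lines mark 1.5-fold. In WT the niraparib points run from -1.89 (BUB1) to 0.72 (CENPM), and in PARP1 KO every niraparib point is open.

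Among the 6 checkpoint genes, 5 fell with niraparib in WT and the other, MAD1L1, had too few counts to read. BUB1 (ENSG00000169679, chr2:110637698-110678114, minus strand), a kinase that marks centromeric chromatin for shugoshin and recruits other checkpoint proteins, had the largest change of all 46 members. BUB1 stood at 109.6, 113 and 114 CPM in the WT libraries with DMSO, at 34.3, 28.6 and 28.3 in those with niraparib and at 79.2, 81.5 and 83.4 in those with olaparib. The 3 groups did not overlap, and niraparib was lowest. The PARP1 KO libraries had 101, 103 and 112 CPM with DMSO, 102, 96.5 and 93.3 with niraparib and 115, 106 and 92.2 with olaparib. In PARP1 KO all 3 groups overlapped. The log2 fold change in WT was -1.89 (SE 0.064, adjusted P = 2.39e-15) with niraparib and -0.46 (SE 0.061, adjusted P = 1.30e-05) with olaparib (edgeR), and niraparib and olaparib differed by -1.43 (SE 0.064, adjusted P = 8.00e-13). In PARP1 KO it was -0.12 (SE 0.068, adjusted P = 0.653) and -0.019 (SE 0.067, adjusted P = 0.918) (edgeR). The niraparib value there was from -0.15 to -0.073 with 1 library left out. The genotypes differed by 1.77 (SE 0.097, adjusted P = 2.93e-14) for niraparib and by 0.45 (SE 0.095, adjusted P = 0.008502) for olaparib (edgeR).

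TTK (ENSG00000112742, chr6:80003887-80042527, plus strand) is the kinase MPS1, which starts checkpoint signalling at KNL1. For TTK, WT libraries had 58.7, 65.7 and 64.5 CPM with DMSO, 38.4, 35.7 and 37.6 with niraparib and 64.9, 64.8 and 63.4 with olaparib. The olaparib libraries overlapped DMSO and the niraparib libraries lay below both. The counts in PARP1 KO were 61.1, 62.2 and 66.9 CPM with DMSO, 65.3, 63.4 and 56.05 with niraparib and 73.2, 66.5 and 59.95 with olaparib. In PARP1 KO the groups overlapped. TTK fell with niraparib by 0.76 on the log2 scale (SE 0.056, adjusted P = 4.22e-10, edgeR) and was at 0.032 (SE 0.055, adjusted P = 0.748) with olaparib in WT, and the genotypes differed by 0.72 (SE 0.092, adjusted P = 1.41e-07) for niraparib. BUB1B (BUBR1), MAD2L1 and BUB3, which bind CDC20 in the mitotic checkpoint complex, fell with niraparib in WT by 0.51, 0.46 and 0.34 log2 units (adjusted P = 1.21e-08, 4.15e-07 and 2.36e-05, edgeR), each under 1.5-fold. With olaparib BUB1B fell by 0.33 (SE 0.046, adjusted P = 2.48e-05, edgeR), while MAD2L1 and BUB3 were at 0.13 and -0.0021 (adjusted P = 0.0945 and 0.984). MAD1L1, the anchor of MAD2L1 at kinetochores, had from 1 to 30 counts per library. Of its exon bases, 41.5% are shared with another gene of the same strand, where reads were not counted for either. No change was detectable at these counts.

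The RZZ complex of KNTC1 (ROD), ZW10 and ZWILCH brings the dynein adaptor Spindly (SPDL1) to kinetochores. ZW10 (ENSG00000086827, chr11:113733187-113773735, minus strand) also acts in membrane traffic in interphase. Read counts of ZW10 in WT were 44.1, 46.6 and 49.7 CPM with DMSO, 45.2, 45.6 and 50.98 with niraparib and 41.7, 46.3 and 39.7 with olaparib. The 3 WT groups overlapped. With DMSO the PARP1 KO libraries stood at 55.3, 53.6 and 56.5 CPM, with niraparib at 50.1, 49.8 and 48.7 and with olaparib at 46.5, 49.3 and 47.1. Both inhibitor groups lay below DMSO in PARP1 KO, and the DMSO libraries of that line lay above those of WT. ZW10 was at 0.011 (SE 0.065, adjusted P = 0.9196) on the log2 scale with niraparib in WT, at -0.21 (SE 0.055, adjusted P = 0.02003) with olaparib in PARP1 KO and at 0.24 (SE 0.061, adjusted P = 0.0424) between the lines with DMSO (edgeR). The last 2 had adjusted P values up to 0.104 and 0.295 with 1 library left out. SPDL1 fell in WT by 0.85 with niraparib (SE 0.075, adjusted P = 9.21e-09, edgeR) and by 0.37 with olaparib (SE 0.074, adjusted P = 9.72e-04), and the genotypes differed by 0.69 (SE 0.10, adjusted P = 2.28e-06) for niraparib. KNTC1 fell by 0.34 with niraparib (SE 0.059, adjusted P = 7.79e-05, edgeR), and ZWILCH was at 0.054 (SE 0.052, adjusted P = 0.457).

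The SKA complex, which helps kinetochores stay on shrinking microtubules, also split. SKA1 (ENSG00000154839, chr18:50375040-50394168, plus strand) carries its microtubule-binding domain. In WT the normalised read count of SKA1 was 20.97, 23.9 and 25.4 CPM with DMSO, 35.5, 36.9 and 34.1 with niraparib and 31.9, 29.95 and 31.2 with olaparib. The WT groups did not overlap and ran from DMSO through olaparib to niraparib. Libraries of PARP1 KO had 24.8, 23.96 and 26.6 CPM with DMSO, 23.5, 25.7 and 23.6 with niraparib and 28.2, 25.99 and 23.5 with olaparib. These overlapped. SKA1 rose by 0.60 (SE 0.069, adjusted P = 3.65e-07) on the log2 scale with niraparib and by 0.40 (SE 0.070, adjusted P = 2.38e-04) with olaparib in WT (edgeR). It dropped under 1.5-fold with niraparib without WT niraparib replicate 2 (0.56) or WT DMSO replicate 1 (0.53), and without both (0.50). The genotypes differed for SKA1 by -0.65 (SE 0.10, adjusted P = 8.01e-06) with niraparib (edgeR; -0.58, under 1.5-fold, without WT DMSO replicate 1 and -0.53 without both and PARP1 KO niraparib replicate 3). SKA3 rose by 0.32 (SE 0.090, adjusted P = 0.00751) with niraparib (edgeR), whereas SKA2 fell by 0.57 (SE 0.055, adjusted P = 3.11e-08) and passed 1.5-fold without WT niraparib replicate 1 (-0.59) or 3 (-0.60).

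CENPE and CENPF belong to the fibrous corona, the outermost layer of kinetochores that lack microtubules. CENPE (ENSG00000138778, chr4:103105806-103198409, minus strand) is a kinesin that carries chromosomes to the spindle equator. The WT libraries had CENPE at 92.9, 92.4 and 90.9 CPM with DMSO, at 42.7, 39.9 and 42.4 with niraparib and at 58.6, 57.1 and 53.1 with olaparib. The 3 groups did not overlap, and the DMSO libraries were highest. In PARP1 KO the count was 85.2, 82.4 and 82.01 CPM with DMSO, 84.4, 69.6 and 70.7 with niraparib and 71.2, 72.6 and 68.2 with olaparib. Here the olaparib libraries lay below DMSO and the niraparib libraries overlapped it. CENPE fell in WT by 1.15 on the log2 scale with niraparib (SE 0.053, adjusted P = 2.45e-13, edgeR) and by 0.71 with olaparib (SE 0.052, adjusted P = 5.62e-09). It also fell with olaparib in PARP1 KO, by 0.24 (SE 0.063, adjusted P = 0.0219, edgeR), and was at -0.15 (SE 0.063, adjusted P = 0.476) with niraparib there. The niraparib value was from -0.24 to -0.099 with 1 library left out. In PARP1 KO the fall of CENPE did not pass when any of 5 single libraries was omitted (adjusted P as high as 0.0897, edgeR). The genotypes differed by 0.99 (SE 0.084, adjusted P = 2.04e-11) for niraparib and 0.47 (SE 0.083, adjusted P = 9.35e-04) for olaparib (edgeR).

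CENPF (ENSG00000117724, chr1:214603195-214664571, plus strand), a long coiled-coil protein that binds microtubules and dynein regulators, had the highest read count of the 46. CENPF stood at 846, 863 and 855 CPM in the WT libraries with DMSO, at 323, 315 and 305 in those with niraparib and at 591, 617 and 616 in those with olaparib. The 3 groups did not overlap. The PARP1 KO libraries had 806, 789 and 764 CPM with DMSO, 806, 706 and 703 with niraparib and 813, 839.95 and 774 with olaparib. In PARP1 KO the groups overlapped. The log2 fold change in WT was -1.44 (SE 0.047, adjusted P = 1.09e-15) with niraparib and -0.49 (SE 0.046, adjusted P = 1.54e-07) with olaparib (edgeR). In PARP1 KO it was -0.087 (SE 0.053, adjusted P = 0.666) and 0.040 (SE 0.053, adjusted P = 0.7402), and the genotypes differed by 1.35 (SE 0.070, adjusted P = 9.95e-17) for niraparib and 0.53 (SE 0.070, adjusted P = 1.07e-05) for olaparib (edgeR). With 1 library left out, the PARP1 KO values were from -0.15 to -0.055 with niraparib and from 0.0044 to 0.069 with olaparib.

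The shugoshins keep cohesin at centromeres until anaphase. SGO1 (ENSG00000129810, chr3:20160593-20186206, minus strand) does so in mitosis together with the phosphatase PP2A. For SGO1, WT libraries had 35.98, 39.8 and 37.5 CPM with DMSO, 44.4, 42.98 and 44.7 with niraparib and 44.4, 47.9 and 45.2 with olaparib. Both inhibitor groups lay above DMSO and overlapped each other. The counts in PARP1 KO were 34.7, 34.6 and 35.3 CPM with DMSO, 33.3, 33.2 and 32.02 with niraparib and 41.997, 36.9 and 33.1 with olaparib. There niraparib lay below DMSO. SGO1 rose by 0.22 (SE 0.057, adjusted P = 0.00402) on the log2 scale with niraparib and by 0.28 (SE 0.058, adjusted P = 0.00131) with olaparib in WT (edgeR). Its paralogue SGO2 fell, by 1.08 with niraparib (SE 0.062, adjusted P = 8.79e-12, edgeR) and by 0.32 with olaparib (SE 0.061, adjusted P = 5.75e-04), and the genotypes differed for SGO2 by 0.87 (SE 0.0999, adjusted P = 2.39e-08) with niraparib.

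**Figure D3:**
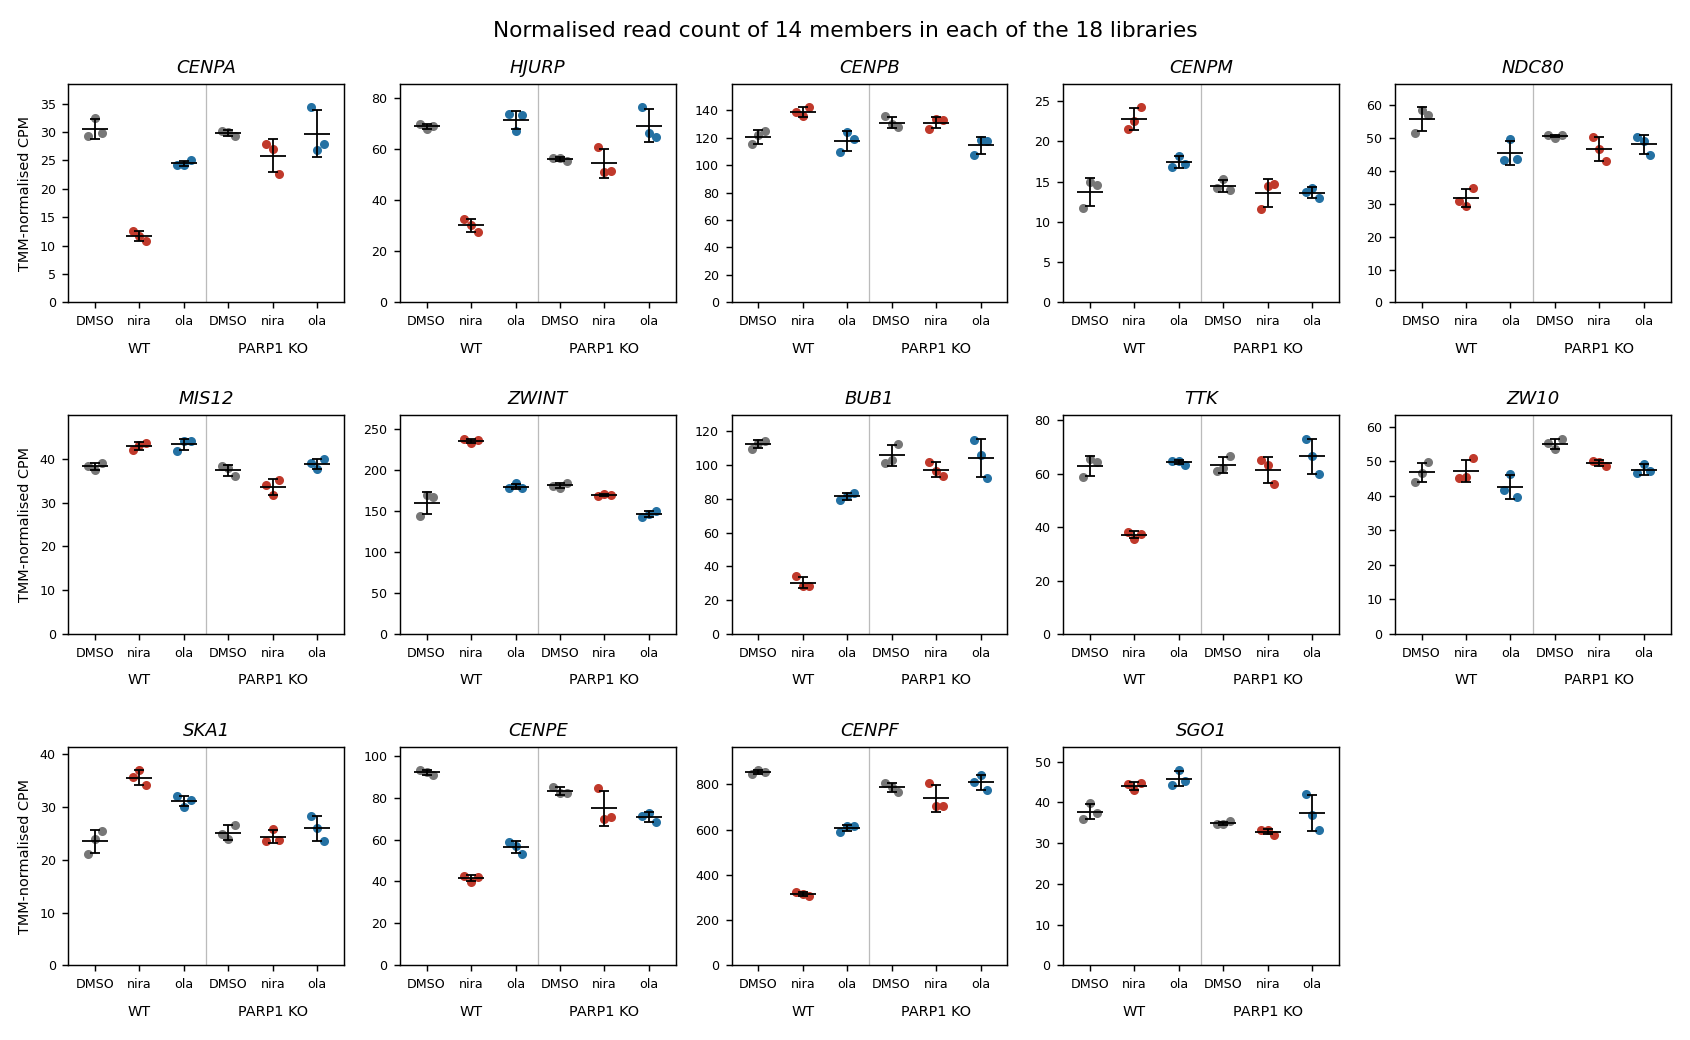
Normalised read count (TMM-normalised CPM) of 14 members in each library, 3 points per group, with the mean and SD as bars; nira is niraparib and ola olaparib, grey is DMSO, and each y axis starts at 0. BUB1 has 34.3, 28.6 and 28.3 CPM in the WT niraparib libraries, below all its other libraries, and ZWINT has 237, 232 and 237 there, above all its others.

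Levels of different genes were compared as CPM per kilobase of counted exon. That length covers all annotated exons of a gene, less bases shared with other genes, whichever transcript was present. A long annotation therefore lowers the value. In WT with DMSO, CENPF had 73.2 ± 0.718 CPM per kilobase (SD, n = 3) and ZWINT 67.2 ± 5.78. MIS18A (43.99 ± 2.47), SKA2 (43.4 ± 1.19), CENPX (42.4 ± 1.71) and CENPB (41.7 ± 1.698) came next, and each differed from its neighbour among these 4 by less than the SD. Apart from MAD1L1, the lowest levels per kilobase were those of CENPP (0.883), CENPC (3.31), CENPI (3.47) and NSL1 (3.53). Their counted lengths were 9321, 8496, 4321 and 13867 bases, and the part of length in this order was not tested. With niraparib in WT, CENPF moved from rank 1 to rank 7 at 26.9 ± 0.7699 CPM per kilobase, BUB1 from rank 15 to 39 at 5.04 ± 0.556, and CENPM from rank 38 to 18 at 13.004 ± 0.795.

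Other genes of cell division were taken from lists of names for comparison. Of all genes, 18.1% fell and 19.9% rose with niraparib in WT at an adjusted P value below 0.05 (edgeR). The share called lower was 5.72%. All 9 genes of a mitotic entry list were called lower with niraparib in WT, with PLK1, a kinase that acts at kinetochores, at -2.46 (SE 0.070, adjusted P = 1.40e-14) on the log2 scale and CCNB1, the activator of CDK1, at -2.19 (SE 0.066, adjusted P = 1.03e-14) (edgeR). Of the 5 genes of the chromosomal passenger complex and its partner haspin, 4 fell (AURKB, BIRC5, CDCA8, INCENP) and all but AURKB were called. The largest changes were CDCA8 (borealin) at -1.26 (SE 0.049, adjusted P = 1.34e-14) and INCENP at -1.23 (SE 0.054, adjusted P = 9.71e-14) (edgeR). Of 18 genes of the anaphase promoting complex and its activators, 10 fell and 1, ANAPC13, rose, with its E2 enzyme UBE2C at -1.62 (SE 0.063, adjusted P = 1.16e-13) and CDC20, the activator that the checkpoint holds, at -1.58 (SE 0.050, adjusted P = 8.72e-16) (edgeR). In the list of cohesin, separase and securin 9 of 12 fell and 1, CDCA5, rose, with securin (PTTG1) at -1.65 (SE 0.048, adjusted P = 2.77e-16) and the cohesin regulator PDS5B at -0.47 (SE 0.052, adjusted P = 1.91e-07) (edgeR).

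A list of 12 S phase genes went the other way, of which 9 rose at an adjusted P value below 0.05 (edgeR), led by the licensing factor CDC6 at 0.71 (SE 0.057, adjusted P = 1.59e-09) and MCM5, a subunit of the replicative helicase, at 0.63 (SE 0.062, adjusted P = 3.70e-08). The median log2 fold change was 0.44 for this list and -1.44 for the mitotic entry list, beside -0.28 for the 46 members and -0.025 for all genes. A list of 13 genes held CDKN1A beside genes of MuvB, DREAM and their activators. The latter control cell cycle genes through CHR and E2F motifs. Of the 13, 5 rose and 5 fell. The largest changes there were CDKN1A, the CDK inhibitor p21, at 2.23 (SE 0.075, adjusted P = 3.13e-12) and RBL1 (p107) at 0.70 (SE 0.098, adjusted P = 1.60e-05) (edgeR). The 2 genes that silence the checkpoint, MAD2L1BP and TRIP13, rose, by 0.56 (SE 0.067, adjusted P = 6.19e-07) and 0.15 (SE 0.056, adjusted P = 0.0342) (edgeR).

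**Figure D4:**
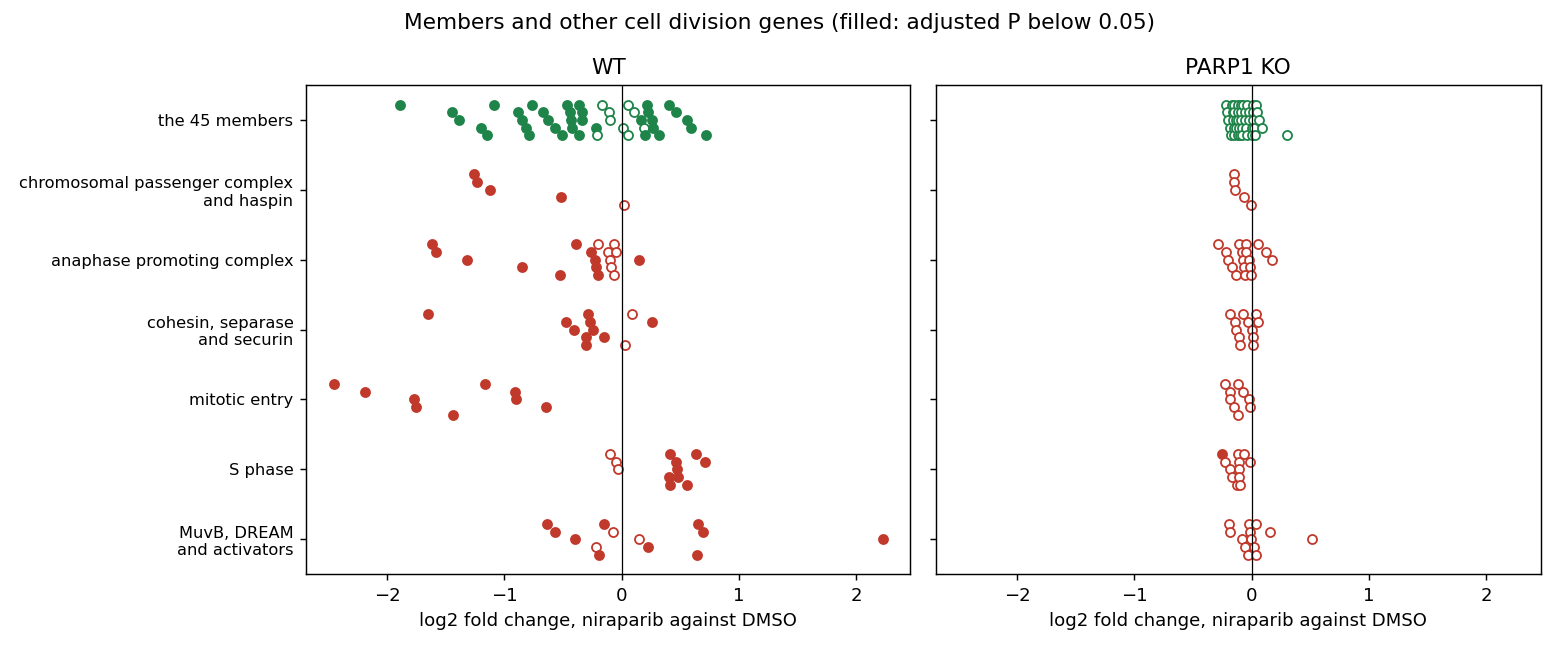
Log2 fold change with niraparib against DMSO of 45 members (green) and of 6 lists of other cell division genes (red), 1 point per gene, in WT and in PARP1 KO; filled points had an adjusted P value below 0.05 (edgeR) and the vertical offset only separates points. In WT the lists have medians from -1.44 (mitotic entry) to 0.44 (S phase), and in PARP1 KO 1 S phase gene is filled.

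In PARP1 KO with niraparib, the medians were -0.12 for mitotic entry and -0.11 for S phase, where 1 of the 12 S phase genes, RRM2, passed an adjusted P value of 0.05 (edgeR). The difference between genotypes for niraparib was called for all 9 mitotic entry genes, PLK1 at 2.33 (SE 0.095, adjusted P = 2.14e-16) and CCNB1 at 2.11 (SE 0.11, adjusted P = 1.61e-11) (edgeR), and for 6 of the 12 S phase genes. The S phase genes also differed between the lines before any inhibitor. With DMSO 8 of the 12 were higher in PARP1 KO at an adjusted P value below 0.05 (edgeR), with a median of 0.27. The share of all genes was 0.811%. With olaparib in PARP1 KO 9 were lower and 1 higher, against 3.87% and 4.42% of all genes, with a median of -0.26. The luminal markers moved as well: all 7 fell with niraparib and with olaparib in WT at an adjusted P value below 0.05 (edgeR), with PGR at -0.88 (SE 0.057, adjusted P = 4.77e-11) and GATA3 at -0.74 (SE 0.048, adjusted P = 5.99e-11) for niraparib. KRT19 and KRT8 had the highest total counts of them, with libraries from 2881 to 4158 CPM and from 2403 to 4425 CPM. TP63 rose with niraparib in WT, by 0.78 (SE 0.20, adjusted P = 0.00307) (edgeR). The part of these shifts in the values of the 46 members was not tested.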

How the data were processed

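PolyA RNA of 18 libraries was measured. The authors deposited raw counts per gene: reads were trimmed with Trimmomatic, mapped to GRCh38 with STAR, passed through Picard MarkDuplicates, and counted over exons with featureCounts 2.0.0 (reverse strand, primary alignments only) on Ensembl release 96. Reads over more than 1 gene of a strand were not counted, so overlapping genes lose reads, and genes with near-identical copies are uncertain. Of 58884 identifiers, 58472 were matched to symbols.

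Genes with more than 10 counts in total entered a robust quasi-likelihood F test after TMM normalisation (edgeR 4.0.16, R 4.3.3), with Benjamini-Hochberg adjustment over all genes tested, on 9 libraries within a genotype and on all 18 between genotypes. DESeq2 1.42.0 was an alternative. Standard errors were taken from each log2 fold change and its F statistic (absolute change over the root of F). The code was tested on simulated counts.

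The members and lists were chosen with earlier results of these data known. Full values are given for up to 5 called members with the largest change in each direction of a comparison, and for 1 member of each role without one; in other lists the 2 largest changes are named. Some results are not reported here. Genes behind counts of 5 or fewer were named after their values were seen. Alternatives were RLE size factors, filterByExpr, no filter on low counts, DESeq2, a block for the replicate number, a fit of all 18 libraries, other thresholds, each library left out in turn and, chosen after seeing the data, 3 libraries that stood apart (WT DMSO replicate 1, WT niraparib replicate 2, PARP1 KO niraparib replicate 3) left out together. Counts of replicate libraries differed beyond counting noise in each of the 18 pairs, so none was taken for a copy of another; this does not show that they came from separate cultures.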

Additional observations from a re-analysis of the deposited data

Results flagged for a closer look

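The response to niraparib differed between genotypes for 14 members in the test of the difference itself (PARP1 KO minus WT on the log2 scale, edgeR, all 18 libraries), past 1.5-fold and with adjusted P values under 0.05. The difference was 1.77 for BUB1, 1.35 for CENPF, 1.17 for CENPA, 1.15 for HJURP and 0.99 for CENPE. It was 0.87 for SGO2, 0.86 for OIP5, 0.72 for TTK, 0.70 for NDC80, 0.69 for SPDL1 and 0.68 for NUF2. These 11 fell with niraparib in WT. For CENPM, ZWINT and SKA1, which rose there, the difference was -0.81, -0.65 and -0.65. The difference of SKA1 was under 1.5-fold without WT DMSO replicate 1, at -0.58, and without it, WT niraparib replicate 2 and PARP1 KO niraparib replicate 3 together, at -0.53.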

How the results depend on the processing

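When called by adjusted P alone, under 0.05 (edgeR), the 15 members called for niraparib in WT became 36, the 1 for olaparib 22, the 8 between the inhibitors 32 and the 14 that differed between genotypes for niraparib 31. The counts of 0 became 10 for olaparib in PARP1 KO, 2 between the lines and 6 for the genotype difference for olaparib, as the threshold is wider. With 2-fold as the threshold the counts were 6, 0, 3 and 4 in the order given first. Shares of all genes past 2-fold are not given here. With 1 library left out, the olaparib count in WT was from 1 to 2, with 2 when WT DMSO replicate 2 was left out. Without MAD1L1, which shares over 25% of its exon bases, the median of the members for niraparib in WT was -0.34. RLE size factors, filterByExpr, no filter, DESeq2, the replicate block and a fit of all 18 libraries changed no call of a member. Numbers did not pair libraries: same-numbered libraries of a genotype correlated from -0.56 to 0.39 in WT and from -0.52 to 0.58 in PARP1 KO, 5 of 18 libraries correlated best with their own number, and the replicate block gave the counts 15, 1, 8 and 14. Over 2128 values of 14 members, 2091 kept direction and side of the 1.5-fold call, 5 lost a call, 2 gained one and 30, of 15 uncalled results near 0, changed sign. The cause was not tested. By adjusted P value alone, of 139 passes of the 46 members, 109 held under all alternatives and 30 were lost under at least 1. They are given with each comparison, and the cause of the losses was not tested. CENPB for niraparib in PARP1 KO was -0.0058 without a filter and -0.0013 with all 18 libraries. Over all genes, calls without a filter were 24 against 3 for niraparib in PARP1 KO (8 by DESeq2), 102 against 36 between the lines and 346 against 162 for the genotype difference for olaparib, with no member among them. Without WT DMSO replicate 1, WT niraparib replicate 2 and PARP1 KO niraparib replicate 3, a choice made after seeing the data, the sign changes were TTK at -0.014 for olaparib in WT, 0.024 for niraparib in PARP1 KO and -0.043 between the lines, CENPB at -0.0090 for niraparib in PARP1 KO and CENPM at -0.032 between the lines. The other sign changes came on leaving out 1 library, and the lowest and highest values are given. For niraparib in WT these were ZW10 from -0.043 to 0.054. For olaparib in WT these were CENPB from -0.077 to 0.0073, TTK from -0.015 to 0.068. For niraparib in PARP1 KO these were HJURP from -0.12 to 0.0025, CENPB from -0.021 to 0.034, CENPM from -0.15 to 0.017, TTK from -0.078 to 0.024. For olaparib in PARP1 KO these were CENPA from -0.13 to 0.056, BUB1 from -0.10 to 0.059, TTK from -0.0037 to 0.14, SKA1 from -0.023 to 0.11. For PARP1 KO against WT with DMSO these were CENPA from -0.063 to 0.015, CENPM from -0.028 to 0.13, TTK from -0.039 to 0.040. For the genotype difference for olaparib these were TTK from -0.031 to 0.11. MAD1L1 had 1 to 30 counts per library, and the cause of its low counts was not tested.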
